A study of Danio rerio with 6 samples.

Results

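Control zebrafish embryos of 24 hours post fertilization (hpf) were set against control embryos of 10 hpf, the end of gastrulation, to describe which genes were switched on or off over this span of development without pentachlorophenol (PCP). All genes of the deposited table were members except 11 entries that gather many clone-derived transcripts under 1 shortened prefix, which left 21217 genes of 21228 entries. Both groups came from a series of 6 libraries in which Tuebingen embryos were kept in PCP or in its vehicle from about 1 hpf. The group 24C was collected at 24 hpf and the group 10C at 10 hpf, and both were kept in the DMSO vehicle without PCP until then. The time in DMSO was therefore longer in 24C, so an effect of its length cannot be told apart from age. Each group was 1 pool of whole embryos (whole larvae in the labels) sequenced as 1 library of RNA on the Illumina platform. There were therefore no replicates, no p-value across genes is given, and every fold compares 2 libraries rather than 2 populations of embryos.

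At 10 hpf the zebrafish embryo has just closed over its yolk: the germ layers are laid down, the organizer has become axial mesoderm, the tail bud is forming and no organ is yet differentiated. Signals of the Nodal, BMP, Wnt and FGF families pattern the germ layers during gastrulation, and an oscillating set of hairy-related genes then divides the presomitic mesoderm into somites. By 24 hpf the body axis is segmented, the heart has begun to beat, primitive blood circulates, the lens and the first neurons and pigment cells have formed, and the hatching gland is filled with protease.

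Reads were recovered from the deposited values, which were whole multiples of the value of 1 read in both libraries, and came to 47409208 in 24C and 50320856 in 10C. A fold is the normalized count of 24C over that of 10C, and the values in parentheses are its 95% Clopper-Pearson interval from the reads, which covers counting error only. A gene was called higher in 24C when this interval lay wholly above 2 and lower when it lay wholly under 0.5. Where a gene had 0 reads in 1 of the libraries, its fold is given only as a bound, taken against a floor of 3 counts in that library. Each "at least" refers to this floor and not to the 95% interval, whose limit is less extreme. For atoh1a that limit was 273-fold, against a bound of 336-fold.

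More genes were higher than lower in 24C, and the changes upward were larger. Of 21217 genes, 4852 were called higher (22.9%) and 2769 lower (13.1%) in 24C. Among the called genes, 953 exceeded 100-fold and 126 fell under 1/100, while 2526 exceeded 10-fold and 450 fell under 1/10. Genes called higher had a median of 217.5 reads in 24C and 17 in 10C, whereas genes called lower had a median of 441 reads in 24C and 1751 in 10C. Single genes lay far from these medians, as cyt1l was called higher with 157331 reads in 10C and sox32 lower with 0 reads in 24C. A gene was termed switched on with at most 3 reads in 10C and at least 50 in 24C, and 587 genes (2.77%) met this, of which 235 had 0 reads in 10C. The reverse held for 66 genes switched off (0.311%), of which 23 had 0 reads in 24C. Reads were found for 19961 genes in 24C and 19178 in 10C, with 1453 genes in 24C alone and 670 in 10C alone. The 100 genes with most reads held 37.4% of gene reads in 24C and 31.1% in 10C.

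**Figure D1:**
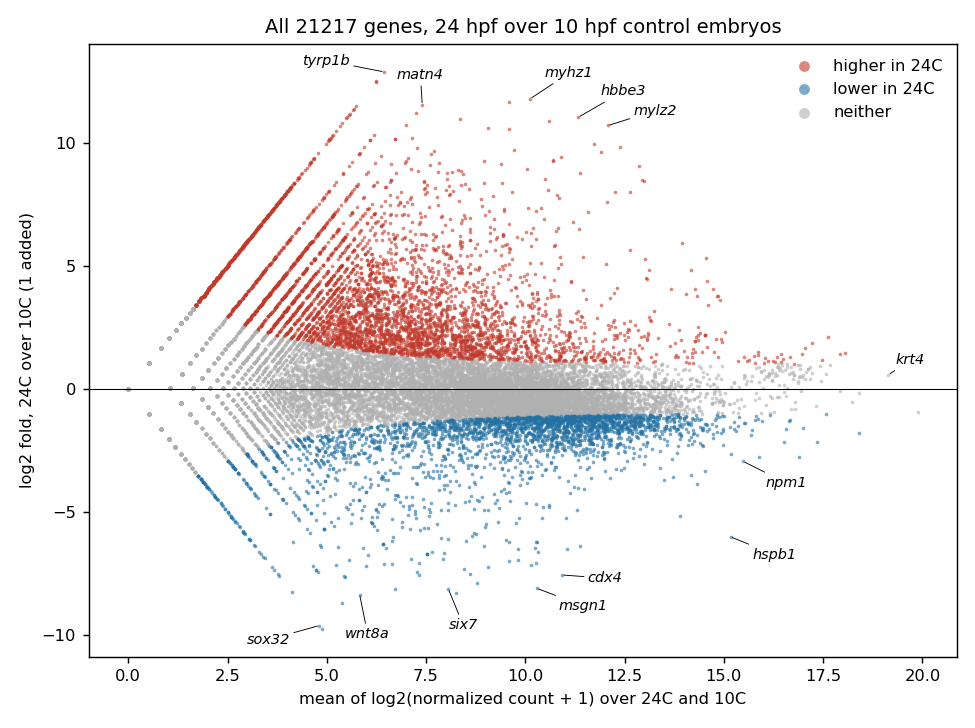
Log2 fold of each of the 21217 genes (vertical axis, 24C over 10C, 1 added to the normalized counts) against its mean log2 normalized count over both libraries (horizontal axis), 1 point per gene. The 4852 genes called higher in 24C (red) reach further from 0 than the 2769 called lower (blue), and 12 of the genes named in the text and krt4, which was not called, are labelled.

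The genes with the highest folds included genes of muscle, pigment and blood. The matrilin gene matn4, which codes for an extracellular adaptor protein, had 8653 reads in 24C and 2 in 10C, a fold of 4411 (1221 to 36430). The fast myosin heavy chain entry myhz1 had 62021 reads in 24C and 17 in 10C, a fold of 3719 (2323 to 6385). The muscle calcium buffer gene pvalb2 had 40965 reads in 24C and 12 in 10C, a fold of 3480 (1992 to 6736). All 3 were scarce at 10 hpf and among the genes with many reads at 24 hpf. The caveolin gene of muscle membranes, cav3, had 6893 reads in 24C and 2 in 10C, a fold of 3514 (972 to 29020). At the other end, the early zygotic gene nnr had 0 reads in 24C and 819 in 10C, at least 268-fold lower. The ligand gene wnt8a had 2 reads in 24C and 979 in 10C, a fold of 0.00208 (0.000252 to 0.00754), and the basement membrane gene nid2b 1 read in 24C and 341 in 10C, a fold of 0.00299 (0.0000755 to 0.0168). Each of these 3 was at the edge of detection at the older age.

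Marker genes fitted the labelled ages. Of 10 markers of the gastrula and tail bud (sox32, gsc, ndr1, lft1, vox, vent, ved, eve1, tbx16 and msgn1), 9 were lower in 24C and none was higher, and ndr1 had 0 reads in 24C and 3 in 10C. Of 15 markers of tissues of the 24 hpf embryo, 13 were in the table under their own name, and all 13 were higher in 24C, with 1149 to 165620 reads in 24C and 0 to 414 in 10C. As whole embryos were sequenced, fewer cells of a type and less RNA per cell cannot be told apart in any value that follows. Lists of genes by tissue, pathway or family are described over their measured members, those with at least 10 reads on average over both libraries. Over all 17158 measured genes, 26.7% were higher and 15.8% lower, and the median log2 fold was 0.07. A gene that is on in 1 library alone passes this filter through that library, so the counts describe the members and do not test them.

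Genes that lay out the body axes during gastrulation were mostly lower in 24C. For the organizer and prechordal plate, 3 of the 22 measured members were higher and 17 lower, with a median log2 fold of -1.96. The BMP antagonist gene chd (chordin), secreted by the organizer, had 88 reads in 24C and 12958 in 10C, a fold of 0.00692 (0.00555 to 0.00854). The organizer ligand gene admp, itself of the BMP family, had 2 reads in 24C and 576 in 10C, a fold of 0.00354 (0.000428 to 0.0129), and the notochord homeobox gene flh (noto) had 50 reads in 24C and 3007 in 10C, a fold of 0.0169 (0.0126 to 0.0224). All 3 were abundant at 10 hpf and scarce at 24 hpf. The 3 members higher in 24C include the follistatin gene fstb, with 204 reads in 24C and 3 in 10C, a fold of 69.3 (23.4 to 339), and the Wnt antagonist gene dkk1a, with 86 reads in 24C and 16 in 10C, a fold of 5.48 (3.19 to 10.01). Both are known to be expressed again in later tissues.

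The Nodal pathway and endoderm specification showed the same direction, where 3 of the 19 measured members were higher and 12 lower, with a median log2 fold of -2.50. The endoderm determinant sox32 had 0 reads in 24C and 746 in 10C, at least 244-fold lower. Its target sox17 had 8 reads in 24C and 715 in 10C, a fold of 0.0114 (0.00491 to 0.0226). The Nodal effector gene foxh1 had 10 reads in 24C and 1954 in 10C, a fold of 0.00522 (0.00250 to 0.00962), and the feedback antagonist gene lft1 (lefty1) 10 reads in 24C and 804 in 10C, a fold of 0.0127 (0.00606 to 0.0234). No read of sox32 was thus seen in 24C, while sox17, foxh1 and lft1 had 8 to 10 reads there. In 24L, the 24 hpf library kept in 5 μg/l PCP, sox32 had 16 reads, sox17 2, foxh1 44 and lft1 87. The co-receptor gene oep (tdgf1) was less reduced, with 121 reads in 24C and 1049 in 10C, a fold of 0.118 (0.0966 to 0.142). Of the members higher in 24C, eomesa, a T-box gene of the mesendoderm and later of the forebrain, had 534 reads in 24C and 16 in 10C, a fold of 34.0 (20.8 to 60.0), and the signal transducer genes smad3a and smad3b had folds of 4.39 (3.71 to 5.22) and 2.90 (2.51 to 3.36). In the pair of libraries kept in 5 μg/l PCP, 24L over 10L, neither smad3 gene was called and smad3b had a fold of 0.966 (0.823 to 1.134).

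Genes of the ventral side and of the BMP pathway had both signs. In the ventral and BMP list, 8 of the 38 measured members were higher and 16 lower, with a median log2 fold of -0.87. The ventral homeobox repressor genes ved and vent had 136 and 10327 reads in 24C and 10C for ved, with a fold of 0.0134 (0.0112 to 0.0159), and 20 and 2541 reads for vent, with a fold of 0.00802 (0.00489 to 0.0124). The transcription factor genes gata2a and gata3, which act in ventral ectoderm and then in blood and neurons, were lower as well, at folds of 0.0634 (0.0581 to 0.0690) and 0.0820 (0.0772 to 0.0870). In the opposite direction, the antagonist gene nog2 (noggin 2) had 304 reads in 24C and 60 in 10C, a fold of 5.17 (3.90 to 6.93). The BMP target gene id1 stayed abundant at both ages, with 40299 reads in 24C and 34053 in 10C, a fold of 1.21 (1.19 to 1.22).

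Regulators of pluripotency and of the onset of zygotic transcription were mostly lower, where 2 of the 27 measured members were higher and 20 lower, with a median log2 fold of -2.66. The homeobox gene hesx1 had 2 reads in 24C and 252 in 10C, a fold of 0.00809 (0.000975 to 0.0295). The zinc finger gene sall4, a stem cell factor, had 1517 reads in 24C and 14758 in 10C, a fold of 0.105 (0.0993 to 0.111). Among the SoxB1 genes, which hold neural progenitors in their state, sox19b was lower with 1431 reads in 24C and 3455 in 10C, a fold of 0.422 (0.397 to 0.449), while sox3 had 9674 reads in 24C and 7998 in 10C, a fold of 1.23 (1.197 to 1.27) and was not called. The 2 members called higher were zbtb16a, with 2924 reads in 24C and 419 in 10C, a fold of 7.12 (6.42 to 7.90), and the myc family gene myca, with 1516 reads in 24C and 169 in 10C, a fold of 9.14 (7.80 to 10.8).

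Genes of the tail bud, the presomitic mesoderm and the somite clock were lower in 24C. In this list, 2 of the 37 measured members were higher and 26 lower, with a median log2 fold of -3.51, the lowest median of all lists. The presomitic determinant msgn1 had 70 reads in 24C and 19880 in 10C, a fold of 0.00359 (0.00280 to 0.00454). The caudal homeobox gene cdx4, which patterns the posterior body, had 132 reads in 24C and 25531 in 10C, a fold of 0.00527 (0.00441 to 0.00625). The T-box genes tbx16 and tbx24 (now tbx6) had folds of 0.00525 (0.00343 to 0.00770) and 0.00773 (0.00594 to 0.00990). In the plot of members by library these genes stand far apart, with 24C at the low end. The clock genes her1 and her7 had 5 and 1677 reads and 10 and 2092 reads, at folds of 0.00304 (0.000986 to 0.00711) and 0.00487 (0.00233 to 0.00898), and the segment boundary gene mespb had 0 reads in 24C and 286 in 10C, at least 93.5-fold lower. The mesoderm gene ntla (tbxta), active in the notochord and the tail bud, was less reduced, with 542 reads in 24C and 4978 in 10C, a fold of 0.111 (0.101 to 0.121). Both members called higher were hairy-related genes, her13 with 2312 reads in 24C and 466 in 10C, a fold of 5.06 (4.58 to 5.599) and her12 with 3177 reads in 24C and 1488 in 10C, a fold of 2.18 (2.05 to 2.32). In the 24L over 10L pair her13 was called higher again and her12 was not, with a fold of 1.77 (1.65 to 1.90). The genes given here as lower were lower again in that pair, but less far from 1. There msgn1 had a fold of 0.0386 (0.0356 to 0.0418), her1 0.0509 (0.0408 to 0.0627) and mespb, with 22 reads in 24L, 0.0802 (0.0495 to 0.1235).

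Muscle genes were higher in 24C with few exceptions. Of 69 fast muscle genes in the table, 67 were measured, and 60 were higher and 2 lower, with a median log2 fold of 6.07. Their reads summed to 976805 in 24C and 25929 in 10C, or 2.42% and 0.0606% of all gene reads. The light chain gene mylz2 (mylpfa) had 165620 reads in 24C and 101 in 10C, a fold of 1672 (1376 to 2053). The troponin T gene tnnt3a had 62003 reads in 24C and 33 in 10C, a fold of 1916 (1364 to 2783). The skeletal and cardiac actin gene actc1b had 95243 reads in 24C and 377 in 10C, a fold of 258 (233 to 286). These thin and thick filament genes were thus already detected at 10 hpf. The voltage sensor gene of excitation-contraction coupling, cacna1sa, had 306 reads in 24C and 0 in 10C, at least 104-fold higher. The acetylcholine receptor subunit genes of the neuromuscular junction were higher together, chrna1 at a fold of 24.6 (17.8 to 35.0), chrnd at 37.7 (23.0 to 66.3) and chrne at 59.4 (29.9 to 138). The 2 members called lower were the myosin entry myhb, with 35 reads in 24C and 332 in 10C, a fold of 0.107 (0.0736 to 0.152), and the myosin chaperone gene unc45b, with 2506 reads in 24C and 5713 in 10C, a fold of 0.447 (0.426 to 0.469).

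Slow muscle genes followed with smaller differences, where 11 of the 17 measured members were higher and 4 lower, with a median log2 fold of 2.17. The slow myosin gene smyhc1 had 16233 reads in 24C and 180 in 10C, a fold of 91.9 (79.4 to 107), and the troponin T gene tnnt1 (tnnt2c) had 14694 reads in 24C and 26 in 10C, a fold of 576 (393 to 882). The factor that specifies slow fibres, prdm1a, was lower, with 1122 reads in 24C and 6247 in 10C, a fold of 0.183 (0.172 to 0.195). Myogenic regulators divided in the same way. The early determination gene myf5 had 262 reads in 24C and 3768 in 10C, a fold of 0.0709 (0.0623 to 0.0804), while the late gene myf6 (mrf4) had 78 reads in 24C and 1 in 10C, a fold of 79.5 (13.9 to 3181), and klhl31, a kelch protein gene of differentiating muscle, had 4055 reads in 24C and 33 in 10C, a fold of 125 (89.1 to 182). In the list of myogenic regulators, 16 of the 34 measured members were higher and 5 lower, with a median log2 fold of 0.67.

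Several contractile genes of the heart were absent or nearly so at 10 hpf. The heart list had 24 of 42 measured members higher and 7 lower (median log2 fold 1.49). The atrial and ventricular light chain gene myl7 had 2410 reads in 24C and 0 in 10C, at least 819-fold higher, and another light chain gene, cmlc1, had 1959 reads in 24C and 0 in 10C, at least 666-fold higher. The ventricular myosin gene vmhc had 1687 reads in 24C and 2 in 10C, a fold of 860.0 (238 to 7107), and the cardiac troponin T gene tnnt2a had 1814 reads in 24C and 12 in 10C, a fold of 154 (88.0 to 299). The early heart and endoderm factor gene gata5 was lower, with 1089 reads in 24C and 5376 in 10C, a fold of 0.206 (0.193 to 0.221), and so was has2, a hyaluronan synthase gene of migrating mesoderm and of the heart valves, with 68 reads in 24C and 709 in 10C, a fold of 0.0978 (0.0751 to 0.126). The actin gene actc1a was at similar levels at both ages, with 14235 reads in 24C and 11462 in 10C, a fold of 1.27 (1.24 to 1.298).

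**Figure D2:**
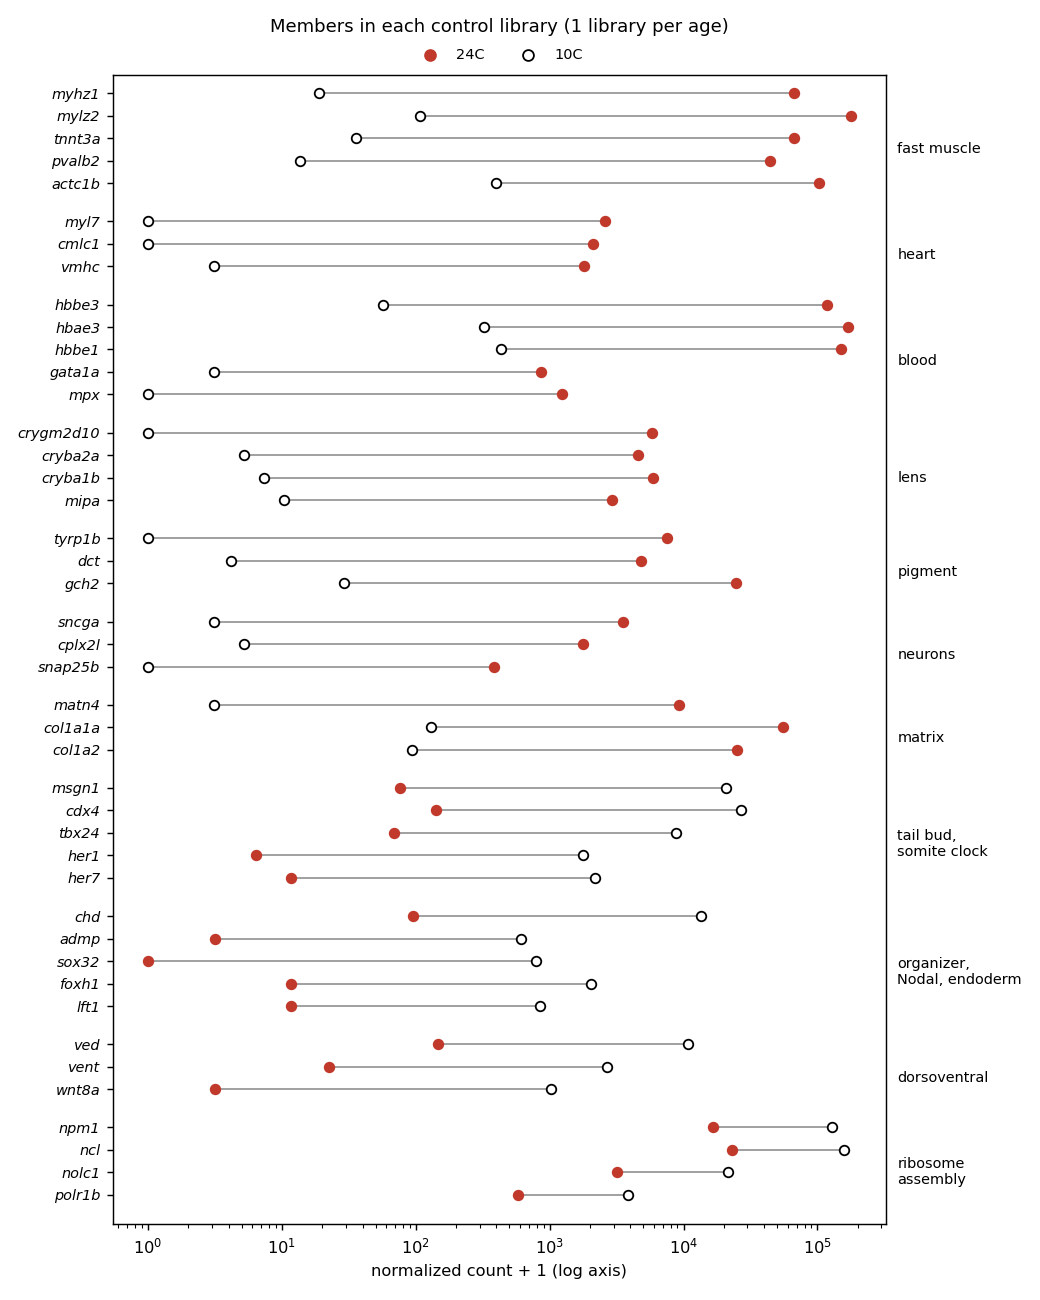
Normalized count plus 1 (log axis) of 43 genes in 24C (filled) and 10C (open), 1 library per age, grouped by tissue or process, with a line joining both values of a gene. Genes of differentiated tissues lie to the right in 24C, with myl7, cmlc1, mpx, tyrp1b, snap25b and crygm2d10 at 0 reads in 10C, and genes of the tail bud, the organizer and ribosome assembly lie to the left in 24C.

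Primitive blood was marked by embryonic globins and by the enzymes of haem synthesis. Of 44 measured members of the red cell list, 32 were higher and 3 lower (median log2 fold 3.91), and their reads took 1.97% of gene reads in 24C and 0.0864% in 10C. The embryonic alpha globin gene hbae3 had 158806 reads in 24C and 309 in 10C, a fold of 524 (469 to 588). The beta globin gene hbbe3 had 110847 reads in 24C and 53 in 10C, a fold of 2132 (1630 to 2847), and hbbe1 had 139598 reads in 24C and 414 in 10C, a fold of 344 (312 to 379.5). The globin genes are near copies of each other, so reads may have been shared among them. The adult genes were barely present, with 67 reads in 24C and 5 in 10C, a fold of 13.7 (5.57 to 43.4) for hbaa1 and 16 and 5 reads for ba1, which was not called. The haem enzyme genes alas2, urod, cpox, ppox and fech were all higher, between a fold of 5.42 (4.98 to 5.91) for cpox and 82.8 (68.5 to 101) for alas2. Genes of the red cell membrane rose with them: the anion exchanger gene slc4a1a had a fold of 85.0 (73.4 to 98.9), the spectrin gene sptb 159 (121 to 212), the ankyrin gene ank1 282 (121 to 871) and the iron receptor gene tfr1a 260.1 (141 to 543). The master regulator gene gata1a had 808 reads in 24C and 2 in 10C, a fold of 412 (114 to 3407), and the earlier regulator genes tal1 and lmo2 had folds of 15.9 (12.97 to 19.7) and 4.15 (3.59 to 4.81). The 3 members lower were the Kruppel-like gene klf3 at 0.454 (0.415 to 0.495), znfl2a at 0.238 (0.227 to 0.250) and rh50, which had 0 reads in 24C and 31 in 10C.

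White cell genes were of 2 kinds. In the early myeloid list, 22 of the 38 measured members were higher and 6 lower, with a median log2 fold of 2.13, and 7 were switched on. The neutrophil peroxidase gene mpx had 1149 reads in 24C and 0 in 10C, at least 390.5-fold higher. The lysozyme gene lyz had 3063 reads in 24C and 13 in 10C, a fold of 240.2 (140.3 to 452), the macrophage gene mfap4 796 reads in 24C and 5 in 10C, a fold of 162 (69.3 to 501) and the granule proteoglycan gene srgn 637 reads in 24C and 1 in 10C, a fold of 649 (116 to 25690). None of these defining genes exceeded 13 reads in 10C. The 4 lower members named here were already abundant at 10 hpf, before myeloid cells arise, and are not restricted to them: the lysosomal protease genes ctsc and ctssb had 2397 and 86453 reads and 8827 and 34512 reads in 24C and 10C, the actin-bundling gene lcp1 965 and 8788 reads and the oxidase subunit gene cyba 239 and 1782 reads. The summed reads of the list were lower in 24C, 33398 against 149847 in 10C, although its median was above 0. The gene ctssb was not called in the 24L over 10L pair, with a fold of 0.575 (0.564 to 0.586).

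Endothelial genes were mostly higher, where 35 of the 49 measured members were higher and 5 lower, with a median log2 fold of 2.74. The junction gene cdh5 (VE-cadherin) had 916 reads in 24C and 13 in 10C, a fold of 71.8 (41.8 to 135). The VEGF receptor gene flt1 had 146 reads in 24C and 2 in 10C, a fold of 74.4 (20.2 to 620.3), and mrc1a, a scavenger receptor gene of veins and lymphatic vessels, had 1439 reads in 24C and 4 in 10C, a fold of 367 (143 to 1348). The apelin receptor genes, which guide mesoderm cells in gastrulation before they act in vessels, were lower, aplnra at a fold of 0.288 (0.248 to 0.334) and aplnrb at 0.377 (0.347 to 0.410).

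The lens crystallins gave the highest median of all lists. The list held 44 entries named as crystallins, of which 32 were measured. Of these, 28 were higher, 1 was lower and 16 were switched on, with a median log2 fold of 8.58. Reads of these 32 members came to 75477 in 24C and 416 in 10C. Some gamma M genes that the paper reports are not among them. Crystallins are the soluble proteins that fill the lens fibres. Of the gamma M genes, crygm2d10 had 5419 reads in 24C and 0 in 10C, at least 1842-fold higher, and crygm2d8 had 5260 reads in 24C and 0 in 10C, at least 1788-fold higher. Of the beta genes, cryba2a had 4294 reads in 24C and 4 in 10C, a fold of 1094 (427 to 4019), and cryba1b 5528 reads in 24C and 6 in 10C, a fold of 939 (431 to 2561). The alpha A gene cryaa was low but present in 24C and not in 10C, with 177 reads in 24C and 0 in 10C, at least 60.1-fold higher. In 10L it had 3 reads. The exceptions were few. The gene crygs2 was lower, with 26 reads in 24C and 86 in 10C, a fold of 0.308 (0.191 to 0.483), and crybb3, crygn1 and cryabb were not called, with 17 and 22 reads, 30 and 15 reads and 15 and 16 reads in 24C and 10C. The gamma M genes are near copies, so the split of reads among them is uncertain. The fibre channel genes mipa and mipb were higher with the crystallins, at folds of 309 (162 to 676) and 219 (106 to 545), and the fibre protease gene capn3 had 501 reads in 24C and 1 in 10C, a fold of 511 (91.3 to 20210). In the list of lens regulators and fibre genes 16 of the 28 measured members were higher and 4 lower, with a median log2 fold of 2.12. Its summed reads were lower in 24C (38034) than in 10C (52540). Lower members included cdh2 and celf1, at folds of 0.338 (0.330 to 0.347) and 0.211 (0.201 to 0.221).

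Eye field genes exchanged places. In the retina list 33 of the 53 measured members were higher and 9 lower, with a median log2 fold of 2.31. The gene rx3, which sets aside the eye field at the end of gastrulation, had 111 reads in 24C and 3285 in 10C, a fold of 0.0345 (0.0283 to 0.0416), and six7 had 14 reads in 24C and 4264 in 10C, a fold of 0.00335 (0.00183 to 0.00562). Their relatives active in the later retina were on at 24 hpf: rx1 had 1174 reads in 24C and 13 in 10C, a fold of 92.1 (53.6 to 173) and six6b 610 reads in 24C and 0 in 10C, at least 207-fold higher. The retinol dehydrogenase gene rdh5 had 472 reads in 24C and 0 in 10C, at least 160.4-fold higher. Paralogs of the same families thus stood at opposite ends of the range. The forebrain gene six3b was lower but not lost, with 959 reads in 24C and 4297 in 10C, a fold of 0.228 (0.212 to 0.244).

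Pigment genes were higher together, where 28 of 36 measured members were higher and none was lower (median log2 fold 3.96). The melanin enzyme gene tyrp1b had 7008 reads in 24C and 0 in 10C, at least 2382-fold higher, and dct had 4478 reads in 24C and 3 in 10C, a fold of 1522 (520.4 to 7382). The pteridine enzyme gene gch2, used by yellow pigment cells, had 22839 reads in 24C and 27 in 10C, a fold of 862 (593 to 1309). The transporter gene slc22a7a had 1708 reads in 24C and 1 in 10C, a fold of 1741 (312 to 68820), and mitfa, the regulator that makes melanophores, had 452 reads in 24C and 13 in 10C, a fold of 35.5 (20.5 to 67.1). The purine enzyme genes paics and atic, which feed pigment and also serve every cell, were not called, at folds of 0.729 (0.719 to 0.740) and 1.91 (1.86 to 1.96). The neural crest that gives rise to pigment cells was divided, where 18 of the 44 measured members were higher and 14 lower, with a median log2 fold of 0.47. Of the crest genes, the early factor genes snai1a, msxe and zic2b were lower, at folds of 0.136 (0.127 to 0.146), 0.152 (0.133 to 0.174) and 0.132 (0.126 to 0.138). The later genes sox10, twist3 and barx1, which mark glial and mesenchymal derivatives, were higher, at folds of 4.58 (3.94 to 5.33), 32.04 (18.9 to 59.1) and 36.4 (21.1 to 68.9).

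Genes of differentiating neurons were mostly higher in 24C. Of 97 measured genes of differentiated neurons 81 were higher and 2 lower (median log2 fold 3.78), and of 88 measured proneural and neuron-fate factors 63 were higher and 3 lower (median 3.86), 18 of them switched on. The synuclein gene sncga had 3305 reads in 24C and 2 in 10C, a fold of 1685 (466 to 13920). The neuropeptide gene adcyap1b had 662 reads in 24C and 2 in 10C, a fold of 338 (93.0 to 2792), and the secretogranin gene scg2b 350 reads in 24C and 1 in 10C, a fold of 357 (63.6 to 14130). The neuronal tubulin genes were already abundant at 10 hpf and gained less, tuba1l2 with 43193 reads in 24C and 15545 in 10C, a fold of 2.83 (2.78 to 2.88) and tuba1 with 19722 reads in 24C and 4851 in 10C, a fold of 4.14 (4.02 to 4.28). Members lower in 24C were the RNA-binding gene elavl2, with 40 reads in 24C and 130 in 10C, a fold of 0.314 (0.214 to 0.450), and the neurofilament-like gene inaa, with 84 reads in 24C and 235 in 10C, a fold of 0.364 (0.281 to 0.469). Neither was called in the 24L over 10L pair, where elavl2 had a fold of 0.368 (0.252 to 0.526), close to that of 24C over 10C, and inaa 0.720 (0.553 to 0.934).

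Among the fate factors, atoh1a, which specifies granule neurons and hair cells, had 989 reads in 24C and 0 in 10C, at least 336-fold higher. The midbrain factor gene tal2 had 460 reads in 24C and 1 in 10C, a fold of 469 (83.8 to 18560), and st18 had 391 reads in 24C and 1 in 10C, a fold of 399 (71.1 to 15780). The POU gene pou3f3a had 1836 reads in 24C and 8 in 10C, a fold of 234 (118 to 543). The neural progenitor genes sox11a and sox11b held the most reads of the list and were not called, at folds of 1.199 (1.17 to 1.23) and 1.75 (1.71 to 1.79). The motor neuron and pancreas gene mnx1 was lower, with 133 reads in 24C and 395 in 10C, a fold of 0.343 (0.280 to 0.419).

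Genes of synapses and excitability were higher but at low counts. In the synaptic vesicle list 41 of the 62 measured members were higher and 1 lower, with a median log2 fold of 2.39. The SNARE gene snap25b had 355 reads in 24C and 0 in 10C, at least 121-fold higher, the complexin gene cplx2l 1652 reads in 24C and 4 in 10C, a fold of 421 (164 to 1547) and the vesicle gene sypa 552 reads in 24C and 3 in 10C, a fold of 188 (63.9 to 912). Their summed reads were only 27299 in 24C and 11558 in 10C. For ion channels, 44 of the 76 measured members were higher and 3 lower, with a median log2 fold of 2.29, and the muscle calcium channel gene cacng1 had 1056 reads in 24C and 0 in 10C, at least 359-fold higher, while the neuronal sodium channel gene scn8aa had 394 reads in 24C and 5 in 10C, a fold of 80.3 (34.1 to 249). Of 44 measured neurotransmitter receptors 21 were higher and 3 lower. The glutamate receptor genes gria3a, grin1a and grm7 had folds of 169 (29.96 to 6724), 114 (31.1 to 944) and 58.1 (26.4 to 159.5). Axon guidance genes were less uniform, where 34 of the 72 measured members were higher and 8 lower, with a median log2 fold of 1.13. The cue genes sema3ab, slit1b and ntn1b were higher, with folds of 68.0 (32.8 to 170.1), 52.6 (26.5 to 123) and 48.5 (23.3 to 122). The receptor gene robo3 was lower, with 1787 reads in 24C and 6609 in 10C, a fold of 0.276 (0.262 to 0.290), and so was the ephrin gene efnb2b, with 109 reads in 24C and 832 in 10C, a fold of 0.134 (0.108 to 0.163).

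In the list of glia and progenitors, 20 of the 41 measured members were higher and 6 lower, with a median log2 fold of 1.23. The radial glia genes gfap and fabp7a had 10541 and 115 reads and 12144 and 47 reads in 24C and 10C, at folds of 93.5 (77.8 to 113) and 263 (198 to 359). The myelin protein gene plp1a had 4945 reads in 24C and 70 in 10C, a fold of 72.0 (56.9 to 92.5). The gap junction gene cx43 and the glutamine synthetase gene glula had more reads at 10 hpf and were lower, with 13935 and 88417 reads and 15608 and 54551 reads, folds of 0.161 (0.158 to 0.164) and 0.292 (0.286 to 0.297).

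Regional patterning genes of the brain and spinal cord were evenly divided, where 24 of the 74 measured members were higher and 27 lower, with a median log2 fold of -0.01. Of the lower genes, irx7 had 274 reads in 24C and 7901 in 10C, a fold of 0.0354 (0.0312 to 0.0399), her5, a gene of the midbrain-hindbrain border, had 53 reads in 24C and 1464 in 10C, a fold of 0.0369 (0.0275 to 0.0485), and the hindbrain gene egr2b (krox20) 63 reads in 24C and 661 in 10C, a fold of 0.0972 (0.0738 to 0.126). Of the higher genes, gsx2, of the ventral forebrain, had 533 reads in 24C and 4 in 10C, a fold of 136 (52.8 to 500.4), gsx1 731 reads in 24C and 24 in 10C, a fold of 31.1 (20.7 to 48.8), and eng1b, of the midbrain border and of muscle, 646 reads in 24C and 4 in 10C, a fold of 165 (64.0 to 606).

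Hox genes differed by paralog group. Hox genes give position along the body axis, and genes of higher paralog number are expressed further toward the tail. Of 47 measured Hox genes 24 were higher and 9 lower in 24C. Groups 1 to 4 had 7 higher and 3 lower of 14 (median log2 fold 1.24), groups 5 to 8 had 5 and 3 of 12 (1.04), groups 9 and 10 had 0 and 3 of 8 (-0.63), and groups 11 to 13 had 12 and 0 of 13 (5.21). The most posterior genes had almost no reads at 10 hpf: hoxc13a had 653 reads in 24C and 3 in 10C, a fold of 222 (75.6 to 1079), hoxc12b 159 reads in 24C and 0 in 10C, at least 54.0-fold higher and hoxc13b 234 reads in 24C and 1 in 10C, a fold of 239 (42.4 to 9463). Only hoxa13b of these groups was not called, with 75 reads in 24C and 51 in 10C, a fold of 1.499 (1.04 to 2.18). At the anterior end, the early hindbrain genes hoxb1b and hoxb1a were lower, with 1114 reads in 24C and 8952 in 10C, a fold of 0.127 (0.119 to 0.135) for hoxb1b and 346 reads in 24C and 1742 in 10C, a fold of 0.203 (0.180 to 0.227) for hoxb1a. Their paralogs hoxc1a and hoxa1a were higher, at folds of 8.34 (6.39 to 11.04) and 6.01 (3.67 to 10.3). The trunk genes hoxb7a, hoxc8a, hoxb10a and hoxa9a were lower too, between a fold of 0.186 (0.166 to 0.208) for hoxb7a and 0.290 (0.263 to 0.319) for hoxa9a. The genes hoxb9a, hoxc9a and hoxd9a had more reads in 10C and were not called.

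**Figure D3:**
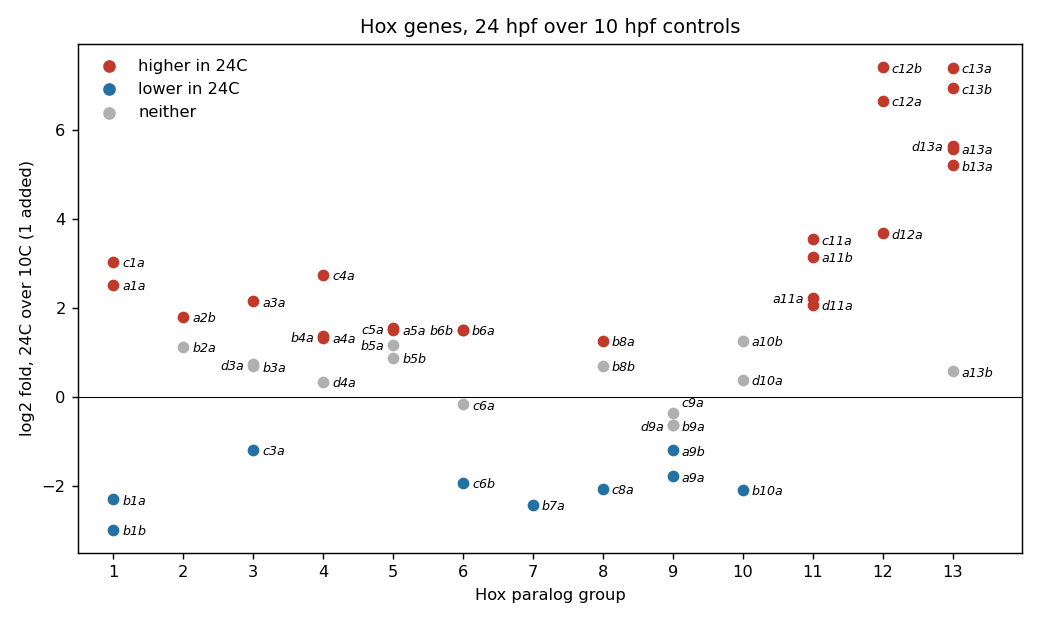
Log2 fold (24C over 10C, 1 added to the normalized counts) of the 47 Hox genes by paralog group, 1 point per gene, with the gene's letter and number beside it. Groups 11 to 13 lie between 0.58 and 7.42, all above 0, and groups 9 and 10 between -2.09 and 1.26.

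Germ plasm and egg transcripts were mostly lower in 24C. None of the 13 measured germ cell genes was higher and 9 were lower (median log2 fold -2.36). The Tudor domain gene tdrd7, a component of germ granules, had 22 reads in 24C and 278 in 10C, a fold of 0.0807 (0.0498 to 0.125), and the piRNA pathway gene piwil2 had 56 reads in 24C and 482 in 10C, a fold of 0.118 (0.0882 to 0.156). The chemokine receptor gene cxcr4b, which guides germ cells and is widely used elsewhere, was not called, with 825 reads in 24C and 883 in 10C, a fold of 0.953 (0.865 to 1.05). Egg coat genes were present at 10 hpf: the entry zp2 had 483 reads in 24C and 9299 in 10C, a fold of 0.0529 (0.0482 to 0.0580) and zp3 had 191 reads in 24C and 4912 in 10C, a fold of 0.0396 (0.0341 to 0.0458). The zona pellucida genes form multicopy families, and the zp2 entry may combine several of them. The oocyte kinase gene wee2 had 0 reads in 24C and 52 in 10C, at least 17.0-fold lower. Of 20 measured oocyte genes 3 were higher, among them the homeobox gene lhx8a with 123 reads in 24C and 4 in 10C, a fold of 31.4 (11.9 to 117), which is also a forebrain gene.

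Keratins, the intermediate filament proteins of the skin, had both signs. Of 8 keratin entries 4 were higher and 3 lower, and their reads summed to 1621341 in 24C and 1582353 in 10C. In the 24L over 10L pair the sums were further apart, 3091247 reads in 24L and 1403389 in 10L. The type I keratin genes cyt1l and cyt1 were higher, with 420324 reads in 24C and 157331 in 10C, a fold of 2.72 (2.71 to 2.74) for cyt1l and 378939 reads in 24C and 145429 in 10C, a fold of 2.66 (2.64 to 2.67) for cyt1, and krt15 had 1160 reads in 24C and 8 in 10C, a fold of 148 (74.8 to 343). The keratin genes krt18, krt8 and krt5 were lower, with 43634 reads in 24C and 301860 in 10C, a fold of 0.147 (0.146 to 0.149) for krt18, 73998 reads in 24C and 334470 in 10C, a fold of 0.226 (0.224 to 0.227) for krt8 and a fold of 0.224 (0.222 to 0.227) for krt5. The member with most reads, krt4, was not called, with 660098 reads in 24C and 454072 in 10C, a fold of 1.48 (1.48 to 1.49). In the 24L over 10L pair krt8 and krt5 were not called and krt4 was higher, with folds of 0.632 (0.628 to 0.636), 0.927 (0.920 to 0.934) and 3.63 (3.62 to 3.64), so the calls of these 3 genes did not hold in both pairs. In the list of the enveloping layer, the outer cell sheet of the early embryo, 8 of the 35 measured members were higher and 20 lower, with a median log2 fold of -1.19. Its desmosome genes dspa and dsc2l were lower, at folds of 0.166 (0.161 to 0.170) and 0.143 (0.135 to 0.151), and the ictacalcin genes icn and icn2, small calcium-binding proteins of skin, were higher, at 28.1 (26.7 to 29.5) and 68.1 (57.7 to 80.9).

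Of 10 measured hatching gland genes 5 were higher and 1 lower in 24C, and ionocyte genes were divided as well. The hatching enzyme gene he1a had 143458 reads in 24C and 3628 in 10C, a fold of 40.3 (39.0 to 41.7), and he1b had 115028 reads in 24C and 1941 in 10C, a fold of 60.4 (57.8 to 63.2). These proteases dissolve the egg envelope. The gland gene ctsl1b had 75890 reads in 24C and 7334 in 10C, a fold of 10.6 (10.3 to 10.8). Another entry with the same RefSeq symbol, ctsl, had few reads, 15 in 24C and 43 in 10C, and was not called. In the 24L over 10L pair ctsl was lower, at 0.0669 (0.0263 to 0.142). The disulfide isomerase gene agr2 of secretory cells had 5900 reads in 24C and 18 in 10C, a fold of 334 (211 to 564). Together the 10 measured gland genes took 0.912% of gene reads in 24C and 0.129% in 10C. The gland transcription factor entry klf4 (klf17) had been higher at the younger age, with 1505 reads in 24C and 5552 in 10C, a fold of 0.276 (0.261 to 0.293). For ionocytes, 10 of the 21 measured members were higher and 3 lower, with a median log2 fold of 1.07. The sodium pump subunit gene atp1b1b was higher, with 3965 reads in 24C and 16 in 10C, a fold of 253 (155 to 442). The gene foxi1, a factor of otic and epidermal precursors, was lower, with 361 reads in 24C and 2516 in 10C, a fold of 0.146 (0.131 to 0.163), and the calcium channel gene trpv6 higher, with 314 reads in 24C and 15 in 10C, a fold of 21.3 (12.7 to 38.6).

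Genes of plasma proteins and of the yolk syncytial layer took more reads at the later age. The list held 4.43% of gene reads in 24C and 2.37% in 10C, where 23 of the 39 measured members were higher and 9 lower, with a median log2 fold of 1.43. The yolk syncytial layer is the cell layer that draws nutrients from the yolk and secretes lipoproteins. The apolipoprotein gene apoa1 had 391505 reads in 24C and 91648 in 10C, a fold of 4.36 (4.32 to 4.39), whereas apoeb, of a related apolipoprotein, was lower, with 128367 reads in 24C and 267270 in 10C, a fold of 0.490 (0.486 to 0.493). The fibrinogen genes fgb and fgg, for clotting, had 8215 and 36 reads and 14086 and 96 reads, at folds of 233 (168 to 332) and 149.6 (122 to 185). The retinol carrier gene rbp4 had 55570 reads in 24C and 295 in 10C, a fold of 192 (171 to 216). Regulators of the same tissues and a lipid transfer gene were lower: hnf1ba had 509 reads in 24C and 5062 in 10C, a fold of 0.102 (0.0934 to 0.112), hnf4a 215 reads in 24C and 1309 in 10C, a fold of 0.168 (0.144 to 0.194), and the lipid transfer gene mtp (mttp) 1646 reads in 24C and 9992 in 10C, a fold of 0.168 (0.159 to 0.177).

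In the list of gut, pancreas and liver precursors, 18 of the 41 measured members were higher and 9 lower, with a median log2 fold of 0.91. The glucagon gene gcgb had 268 reads in 24C and 1 in 10C, a fold of 273 (48.6 to 10830), the somatostatin gene sst2 495 reads in 24C and 5 in 10C, a fold of 101 (42.96 to 312) and the exocrine pancreas and hindbrain factor gene ptf1a 341 reads in 24C and 2 in 10C, a fold of 174 (47.8 to 1441). The copper carrier gene cp (ceruloplasmin), made in liver, had 869 reads in 24C and 6 in 10C, a fold of 148 (67.6 to 404).

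Collagen genes were mostly higher in 24C. Of 39 measured collagens 32 were higher and 1 was lower (median log2 fold 4.02), and their reads summed to 213640 in 24C and 18294 in 10C. The fibrillar collagen gene col1a1a had 51757 reads in 24C and 122 in 10C, a fold of 432 (362 to 521), and col1a1b had 21710 reads in 24C and 44 in 10C, a fold of 503 (375 to 692). Collagen genes of skin anchoring and cartilage were higher too, col7a1 with 1746 reads in 24C and 6 in 10C, a fold of 297 (136 to 809.5) and col11a2 with 2316 reads in 24C and 40 in 10C, a fold of 59.03 (43.2 to 82.8). Laminins, integrins and fibronectin were divided, where 16 of the 32 measured members were higher and 7 lower, with a median log2 fold of 1.52. The laminin chain genes lama1, lamb1a and lamc1, which form the early basement membrane and notochord sheath, were lower, at folds of 0.107 (0.103 to 0.111), 0.138 (0.134 to 0.142) and 0.286 (0.279 to 0.293). Fibronectin 1, on which mesoderm cells migrate, was lower with them, fn1 having 3019 reads in 24C and 39721 in 10C, a fold of 0.0775 (0.0746 to 0.0804). The vascular laminin gene lama4 was higher, with 1731 reads in 24C and 47 in 10C, a fold of 37.5 (28.1 to 51.3). Integrin genes of blood cells were seen in 24C and not in 10C, itgb3a with 1050 reads in 24C and 0 in 10C, at least 357-fold higher and itgb2 with 126 reads in 24C and 0 in 10C, at least 42.8-fold higher. In 10L each had 4 reads.

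In the notochord and floor plate list 23 of the 49 measured members were higher and 11 lower, with a median log2 fold of 0.89, and the genes of the differentiated notochord, cmn (calymmin) with 3925 reads in 24C and 14 in 10C, a fold of 286 (170.1 to 523) and ptrfb with 1733 reads in 24C and 13 in 10C, a fold of 136 (79.3 to 256), were higher. In the list of fin fold and skeletal progenitors 28 of the 50 measured members were higher and 7 lower, with a median log2 fold of 1.99. The actinodin gene and2, of the fin fold fibres, had 1734 reads in 24C and 4 in 10C, a fold of 442 (172 to 1624), and the proteoglycan gene lum had 2830 reads in 24C and 4 in 10C, a fold of 721 (281 to 2649). The somite gene meox1 was lower, with 836 reads in 24C and 3931 in 10C, a fold of 0.217 (0.201 to 0.234).

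Cell adhesion families had members of both signs. Of the classical cadherins, 7 of the 15 measured members were higher and 3 lower, with a median log2 fold of 1.29. The epithelial and neural cadherin genes cdh1 and cdh2 were lower, with 5985 and 13435 reads and 7439 and 22415 reads in 24C and 10C, at folds of 0.454 (0.441 to 0.468) and 0.338 (0.330 to 0.347). So was cdh6, with 3641 reads in 24C and 11540 in 10C, a fold of 0.322 (0.310 to 0.334). Higher members included cdh15 of muscle with 222 reads in 24C and 2 in 10C, a fold of 113 (30.96 to 940.2), and cdh17 of the kidney with 3383 reads in 24C and 193 in 10C, a fold of 17.9 (15.4 to 20.8). The gene cdh1 was not called in the 24L over 10L pair, with a fold of 0.783 (0.763 to 0.804). Of 52 measured protocadherins, mainly genes of neurons, 42 were higher and 3 lower (median log2 fold 3.37), yet their summed reads were lower in 24C (15980) than in 10C (28874). The 3 lower ones held most of the reads in 10C, pcdh8 of the paraxial mesoderm at a fold of 0.0167 (0.0125 to 0.0220), pcdh1 at 0.184 (0.173 to 0.195) and pcdh19 at 0.233 (0.224 to 0.243). Of the tight junction genes, claudins and occludins, 10 of the 27 measured members were higher and 7 lower, with a median log2 fold of -0.20. Of these, cldn1 had 2790 reads in 24C and 23 in 10C, a fold of 124 (82.2 to 195) and cldni 11675 reads in 24C and 1112 in 10C, a fold of 10.7 (10.1 to 11.4), while cldne, of the enveloping layer, had 5502 reads in 24C and 19963 in 10C, a fold of 0.281 (0.273 to 0.289).

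**Figure D4:**
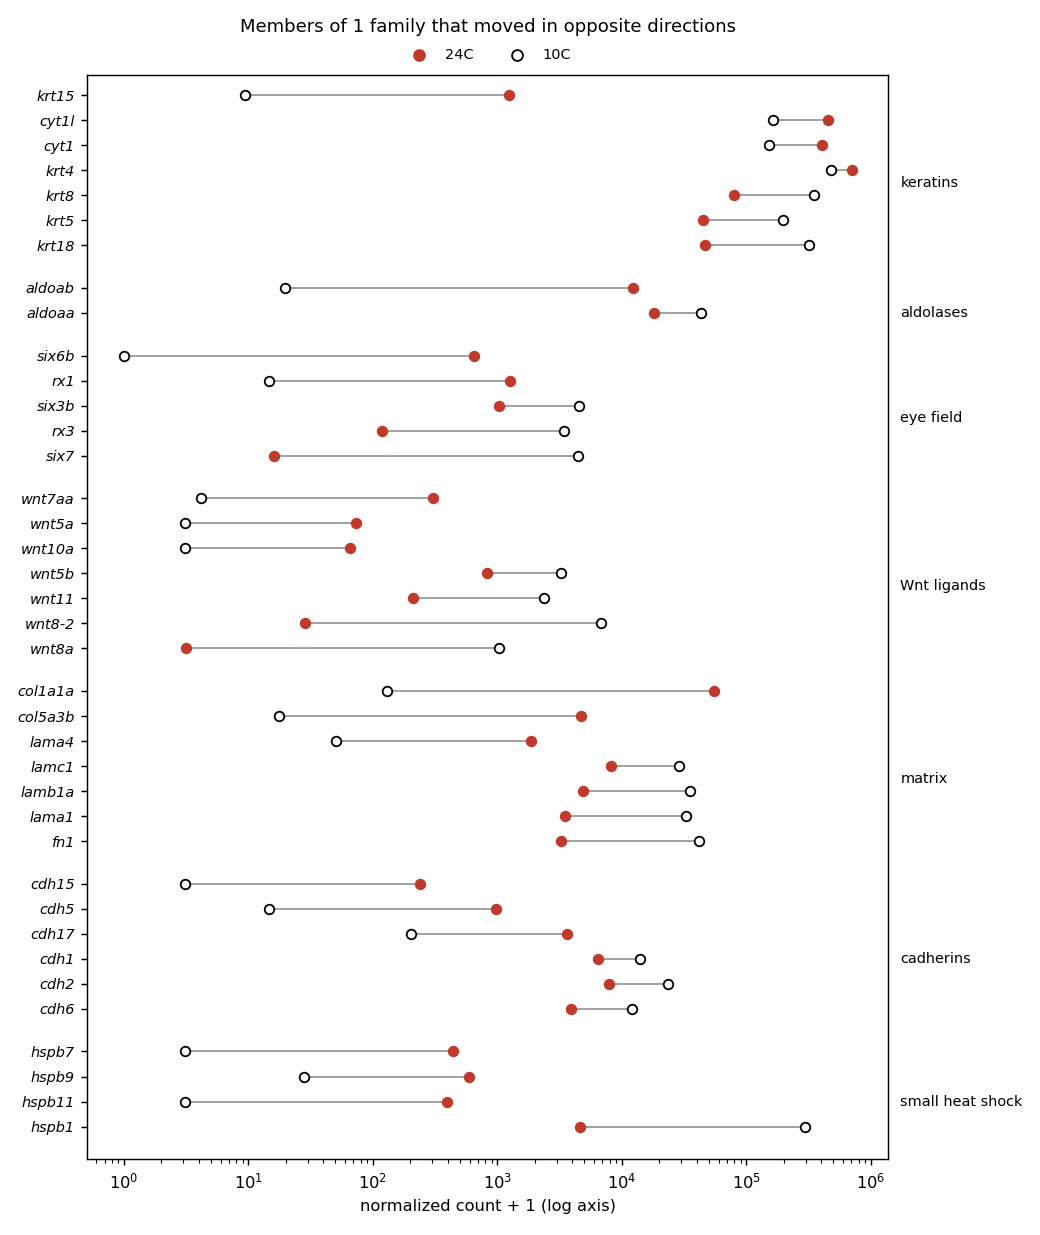
Normalized count plus 1 (log axis) of 38 genes of 7 families or groups in 24C (filled) and 10C (open), 1 library per age, with a line joining both values of a gene. In each family some members lie to the right in 24C and others to the left, as for rx1 and six6b against rx3 and six7.

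In the Wnt and FGF pathways the ligands of gastrulation named here were lower and some other ligands higher. Of 23 measured Wnt ligands 13 were higher and 4 lower (median log2 fold 1.69). Lower ones were those of gastrulation: wnt8a, given above, wnt8-2 with 26 reads in 24C and 6469 in 10C, a fold of 0.00410 (0.00267 to 0.00601), wnt11 with 197 reads in 24C and 2279 in 10C, a fold of 0.0881 (0.0758 to 0.102) and wnt5b with 769 reads in 24C and 3123 in 10C, a fold of 0.251 (0.232 to 0.272). The ligand genes wnt7aa, wnt2, wnt5a and wnt10a were scarce at 10 hpf and higher in 24C, at folds of 96.8 (32.8 to 472), 22.4 (8.46 to 84.1), 34.7 (9.23 to 292) and 30.6 (8.11 to 258). The secreted antagonist gene frzb was lower, with 44 reads in 24C and 1404 in 10C, a fold of 0.0319 (0.0231 to 0.0431), and its relative sfrp2 higher, with 1166 reads in 24C and 70 in 10C, a fold of 16.98 (13.3 to 21.9). The receptor genes fzd7a, fzd7b and fzd8b were lower, at folds of 0.278 (0.271 to 0.285), 0.163 (0.157 to 0.170) and 0.0567 (0.0477 to 0.0669). In the FGF pathway 12 of the 36 measured members were higher and 12 lower, with a median log2 fold of 0.47. Its early ligand gene fgf8a and its feedback and target genes were lower, fgf8a with 379 reads in 24C and 4412 in 10C, a fold of 0.0876 (0.0786 to 0.0973), spry1 at a fold of 0.208 (0.179 to 0.240), il17rd (sef) at 0.183 (0.169 to 0.197), pea3 (etv4) at 0.240 (0.226 to 0.255) and etv5b at 0.293 (0.281 to 0.305). The limb and fin ligand gene fgf10a was higher, with 332 reads in 24C and 12 in 10C, a fold of 28.2 (15.9 to 55.1).

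The retinoic acid pathway had 11 higher and 14 lower of 34 measured members. Retinoic acid is made from retinol in separate enzyme steps and carried by binding proteins. The enzyme gene rdh10b and the reducing enzyme gene dhrs3b were lower, with 426 reads in 24C and 4295 in 10C, a fold of 0.101 (0.0913 to 0.112) for rdh10b and a fold of 0.144 (0.135 to 0.153) for dhrs3b, and the synthesis gene of the eye aldh1a3 was higher, with 183 reads in 24C and 5 in 10C, a fold of 37.3 (15.7 to 116). The binding protein genes crabp2b and crabp1b had opposite signs, with 1200 reads in 24C and 12369 in 10C, a fold of 0.0989 (0.0931 to 0.105) for crabp2b and 1672 reads in 24C and 21 in 10C, a fold of 81.2 (52.9 to 132) for crabp1b. Notch and Hedgehog pathways had medians near 0. In the Notch list 6 of the 27 measured members were higher and 2 lower, with a median log2 fold of -0.06, the ligand genes dlb and dll4 being higher at folds of 6.77 (6.33 to 7.25) and 6.79 (5.03 to 9.33). In the Hedgehog list 4 of the 22 measured members were higher and 4 lower, with a median log2 fold of -0.11, the ligand gene shhb being lower at 0.262 (0.231 to 0.297) and the transcription factor gene gli3 higher at 3.96 (3.35 to 4.70).

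Ribosome biogenesis factors were lower almost throughout, and spliceosome genes mostly. Of 68 measured ribosome biogenesis factors 64 were lower and none was higher (median log2 fold -1.99), and their share of gene reads was 0.501% in 24C and 2.16% in 10C. The nucleolar genes npm1 and ncl had 15492 reads in 24C and 122018 in 10C, a fold of 0.129 (0.127 to 0.132) for npm1 and 21527 reads in 24C and 149766 in 10C, a fold of 0.146 (0.144 to 0.149) for ncl, and the RNA polymerase I gene polr1b had 541 reads in 24C and 3652 in 10C, a fold of 0.151 (0.138 to 0.165). Of 59 measured spliceosome and hnRNP genes 37 were lower and 1 was higher (median -1.31), for example srsf2 at a fold of 0.235 (0.229 to 0.241) and hnrnpab at 0.322 (0.319 to 0.325), with hnrnpa3 higher at 4.12 (3.21 to 5.34). Of 71 measured cytosolic ribosomal proteins, which these factors assemble, 19 were higher and 1 was lower. The higher share, 26.8%, was close to that of all measured genes (26.7%), while the median log2 fold was 0.81, against 0.07 over all measured genes. The list took 19.3% of gene reads in 24C and 10.6% in 10C. The small subunit gene rps29 had 24865 reads in 24C and 7016 in 10C, a fold of 3.61 (3.52 to 3.71), and rps21 had 227222 reads in 24C and 72534 in 10C, a fold of 3.19 (3.17 to 3.22). In the list of translation factors 13 of the 67 measured members were higher and 13 lower, with a median log2 fold of -0.52, and of 16 measured aminoacyl-tRNA synthetases 1 was lower and none was higher.

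Among genes of energy metabolism, those of glycolysis differed by isozyme. In the glycolysis list 25 of the 34 measured members were higher and 2 lower, with a median log2 fold of 3.58. The muscle genes aldoab and pgam2 had 11477 reads in 24C and 18 in 10C, a fold of 650.0 (411 to 1097) for aldoab and 3042 reads in 24C and 9 in 10C, a fold of 345 (181 to 754) for pgam2. The glucose transporter gene slc2a1a had 609 reads in 24C and 2 in 10C, a fold of 310.4 (85.6 to 2569), and the lactate dehydrogenase gene ldhba 58813 reads in 24C and 14896 in 10C, a fold of 4.03 (3.95 to 4.099). Of the members called lower, the aldolase gene aldoaa had 16874 reads in 24C and 40920 in 10C, a fold of 0.420 (0.413 to 0.428), and it was not called in the 24L over 10L pair, with a fold of 1.185 (1.169 to 1.201). In the respiratory chain list 17 of the 61 measured members were higher and 0 lower. The higher share, 27.9%, was close to that of all measured genes (26.7%), while the median log2 fold was 0.70, against 0.07 over all measured genes. Of 40 measured mitochondrial ribosomal proteins 1 was higher and none was lower (median -0.02).

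Few proteasome subunits were called, where 0 of the 46 measured members were higher and 2 lower, with a median log2 fold of -0.18, and both of these belong to activator caps, psme1 with 11 reads in 24C and 1455 in 10C, a fold of 0.00771 (0.00384 to 0.0138) and psme3 with 3103 reads in 24C and 7144 in 10C, a fold of 0.443 (0.424 to 0.462). Few cell cycle genes were called, where 5 of the 76 measured members were higher and 10 lower, with a median log2 fold of -0.59. The replication clamp gene pcna had 60989 reads in 24C and 60955 in 10C, a fold of 1.02 (1.01 to 1.03). The cyclin genes ccna1 and ccne, of early divisions, were lower, at folds of 0.216 (0.122 to 0.362) and 0.207 (0.189 to 0.227), and ccnd2a was higher, at 4.0 (3.53 to 4.54). Of the small heat shock proteins, hspb1 had 4296 reads in 24C and 282627 in 10C, a fold of 0.0155 (0.01503 to 0.0160), while the muscle members hspb7 and hspb11 had 415 reads in 24C and 2 in 10C, a fold of 212 (58.2 to 1753) for hspb7 and 367 reads in 24C and 2 in 10C, a fold of 187 (51.4 to 1551) for hspb11. The maternal cap-binding gene eif4e1b had 8 reads in 24C and 340 in 10C, a fold of 0.0240 (0.0103 to 0.0478).

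**Figure D5:**
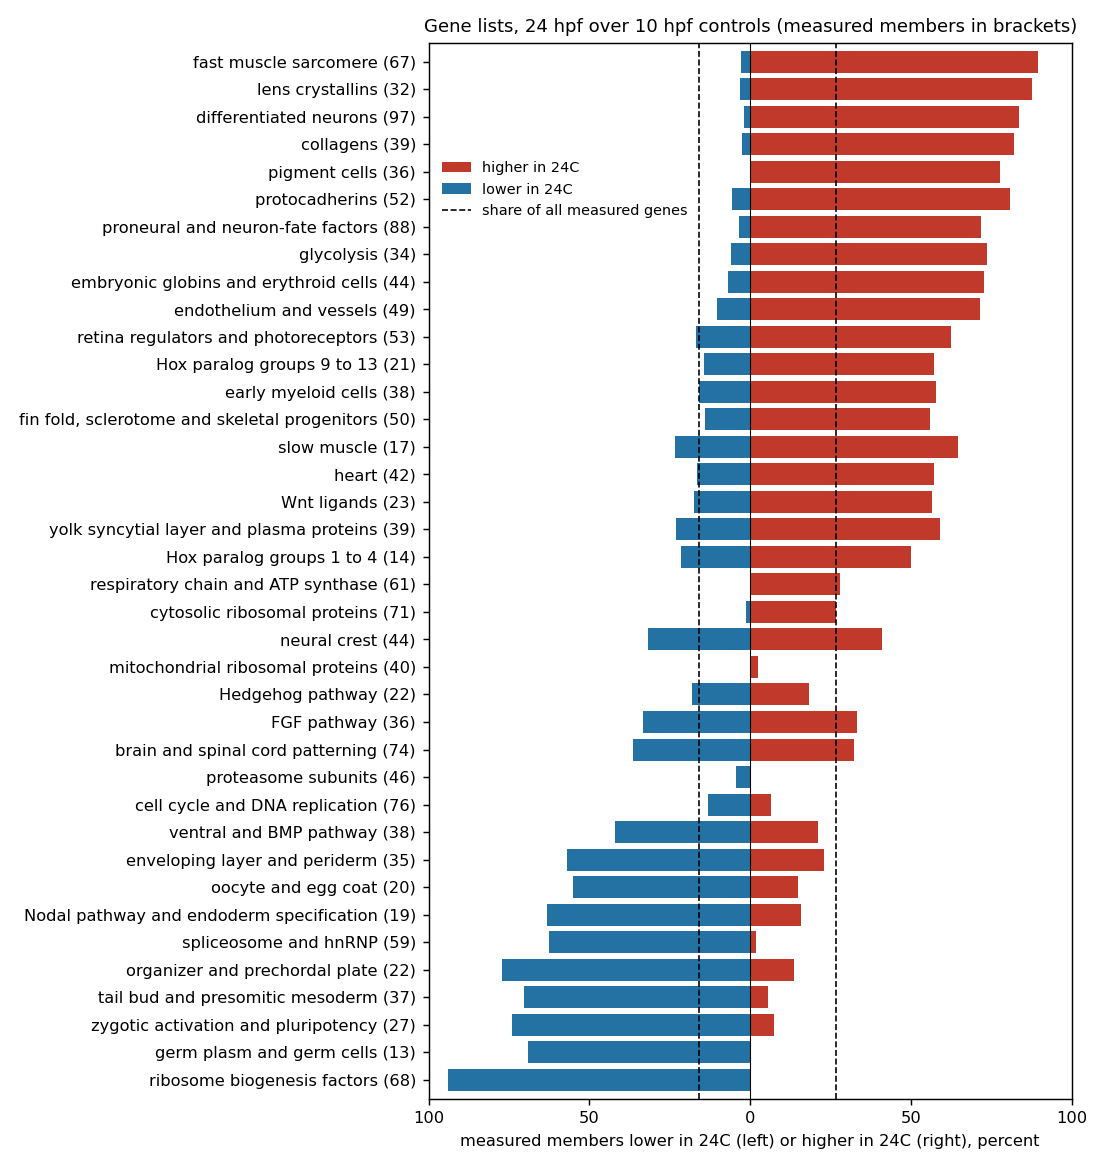
Percent of the measured members of 38 gene lists called higher in 24C (red, to the right) or lower in 24C (blue, to the left), with the number of measured members in brackets. The dashed lines mark the shares over all measured genes, 26.7% higher and 15.8% lower. The lists from fast muscle to protocadherins exceed the share on the right, and those from ribosome biogenesis factors to spliceosome that on the left. Other lists between them also exceed a share, such as glycolysis (73.5% higher) and the Nodal list (63.2% lower).

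With 1 library per age these calls hold counting error alone. When a biological coefficient of variation of 0.4 was assumed in the exact test of edgeR on the recovered reads, 3199 genes were higher and 757 lower, or 65.9% and 27.3% of the calls given above. The pair of libraries kept in 5 μg/l PCP, 24L over 10L, shares no library with 24C and 10C, and in it 3849 of the 4852 genes (79.3%) were again higher and 1813 of the 2769 (65.5%) again lower. Besides those given in their place, 12 of the genes described above were called in 24C over 10C and not in that pair. Of these, crygs2, psme3, sox19b and ccna1 had folds there within 1.5 times those of 24C over 10C, at 0.345 (0.201 to 0.568), 0.562 (0.538 to 0.587), 0.566 (0.534 to 0.599) and 0.296 (0.1596 to 0.519). The other 8 moved further toward 1, to 0.743 (0.684 to 0.807) for klf3, 0.468 (0.410 to 0.533) for aplnra, 0.669 (0.636 to 0.703) for klf4, 0.676 (0.658 to 0.694) for cldne, 2.21 (1.72 to 2.83) for hnrnpa3, 1.88 (1.82 to 1.93) for tuba1, 1.38 (1.36 to 1.41) for tuba1l2 and 2.59 (1.13 to 6.46) for hbaa1. The crystallin genes crybb3 and crygn1 were higher in that pair alone, at 3.55 (2.14 to 6.13) and 4.66 (2.29 to 10.5).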

How the data were processed

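RNA of 1 pool of control embryos per age was sequenced. The authors mapped reads with Tophat (the Zv10 assembly in the methods, Zv9 in the submitters' processing notes), used the human genome for further annotation, and deposited 1 table whose signal per gene and library is a normalized count, described as TMM-normalized. The program and strand setting that counted reads are not given in the sources used here. The deposited scale equalled median-of-ratios size factors over the 6 libraries (largest relative difference 0.0000%). All values were whole multiples (100%, tolerance 0.001 reads) of the value of 1 read, 1.07 in 24C and 1.049 in 10C, and dividing by it gave the reads, 47409208 in 24C and 50320856 in 10C. The 11 clone-prefix entries, with 14.7% of the reads of 24C and 14.9% of those of 10C, were left out.

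Folds, their 95% Clopper-Pearson intervals, bounds against a floor of 3 counts and log2 folds (1 added to the normalized counts) were computed with Python 3.11.15, numpy 2.4.6, pandas 2.3.3, scipy 1.17.1 and matplotlib 3.10.9. PCR copies were not marked, so intervals and floors cover counting error only. A difference of 2-fold in a gene with few reads was not detectable at this depth. The recovered reads were also tested with the exact test of edgeR 4.0.16 in R 4.3.3 at an assumed biological coefficient of variation of 0.4. A gene was called there at an adjusted p under 0.05 together with a fold above 2 or under 0.5. The steps were checked on simulated counts.

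Of the 78 lists, those of stages, tissues and pathways held 1940 entries. Of these, 1486 matched the table by name, 166 through RefSeq accessions, 35 by a shortened name and 253 not at all. The lists of gene families are not in these counts. Of the genes, 11699 had a RefSeq symbol by accession. The members and lists were chosen with earlier results of these data known, and entries that only share spelling with a family were taken out after the files were read. Named genes (629) were the 10 highest and 10 lowest folds among called genes that reached 50 reads in either library, the 4 highest and 4 lowest called members of each list at the same minimum and the 2 with most reads, every measured member of lists of at most 12 and of the Hox, globin and crystallin lists, and the 10 switched-on and switched-off genes with most reads, together with the stage markers. A few of these genes are not reported here. Shortened entries (myhz1, her4, zp2, hbae1) may combine genes, and 9 entries have a date as name. Alternatives were other scalings, thresholds, filters and added constants, the edgeR test and the 24L over 10L pair. TMM scaling was added after the data were seen.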

Additional observations from a re-analysis of the deposited data

How the results depend on the processing

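Scaling by library totals (4973 higher, 2537 lower), by median-of-ratios size factors (4852, 2769) or by TMM (4852, 2769), a minimum of 10 reads on average (4585, 2714) and more than 2-fold with a binomial p under 0.05 (6180, 3863) kept the counts within 1.5 times. Library totals shifted the median log2 fold of all measured genes by 0.06. An interval beyond 4-fold left 2892 genes higher and 735 lower, and the edgeR test with a coefficient of variation of 0.4 left 3199 and 757, as both demand more. Switched-on genes came to 235 with 0 reads in the lower library and 188 with at least 200 in the higher one, and switched-off genes to 23 and 19. In the 24L over 10L pair 4489 genes were higher and 2300 lower, 433 were on (309 of them among the 587) and 31 off (19 of them among the 66). Of the genes called higher in 24C 8 were lower in that pair, and 1 the reverse. With at least 100 reads on average the median log2 fold of all measured genes turned to -0.17, over 11926 genes, and by library totals it was 0.13, against 0.07. Some list medians left the 95% interval given by the order of their own members, each with its sign kept. In the 24L over 10L pair these were germ cells (-1.23, against -2.36 in 24C over 10C), neuron-fate factors (2.46, 3.86), differentiated neurons (2.85, 3.78), protocadherins (2.35, 3.37), cytosolic ribosomal proteins (1.23, 0.81), ribosome biogenesis factors (-1.32, -1.99), proteasome subunits (-0.60, -0.18) and translation factors (-0.12, -0.52). With at least 100 reads they were the oocyte list (-3.49, against -2.19), ion channels (1.09, 2.29), neurotransmitter receptors (4.2, 2.03) and protocadherins (1.82, 3.37), and with 10 added to the normalized counts differentiated neurons (2.97, 3.78), synaptic genes (1.77, 2.39) and protocadherins (2.17, 3.37). Among the named genes called in 24C over 10C, the sign turned in the 24L over 10L pair for aldoaa (log2 fold 0.24), slc3a2 (0.06), smad3b (-0.05) and crygmxl1 (-1.47, 0 and 2 reads). Of 629 named genes 550 had the same call in both pairs. Another 67 kept their sign and were no longer called, and 8 were newly called. Genes called in neither pair count among the 550 even where their sign turned, as for drl (fold 0.780 in 24C over 10C and 1.96 in 24L over 10L). The cause was not tested. No paired analysis was possible because each group has 1 library, and for the same reason no library could be left out.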

Other observations

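Further groups differed between 24C and 10C. In the circadian clock list 12 of the 29 measured members were higher and 2 lower, with a median log2 fold of 0.78. The period genes per1b and per3, repressors of the clock, had 1440 reads in 24C and 10 in 10C, a fold of 147 (79.6 to 307) for per1b and 875 reads in 24C and 55 in 10C, a fold of 16.2 (12.3 to 21.7) for per3, and the cryptochrome gene cry1b had 280 reads in 24C and 18 in 10C, a fold of 15.9 (9.85 to 27.1). The melatonin enzyme gene aanat2 was lower, with 8 reads in 24C and 230 in 10C, a fold of 0.0355 (0.0151 to 0.0711). Cytochrome P450 genes were divided, where 13 of the 56 measured members were higher and 16 lower, with a median log2 fold of -0.49. The steroid side chain cleavage gene cyp11a1 had 81 reads in 24C and 5882 in 10C, a fold of 0.0140 (0.0111 to 0.0175), and cyp2x6 and cyp2p6 had folds of 0.0143 (0.00952 to 0.0205) and 0.0378 (0.0334 to 0.0425). The dioxin-inducible genes cyp1a and cyp1b1 were higher in these embryos without PCP, with 740 reads in 24C and 46 in 10C, a fold of 16.4 (12.2 to 22.6) for cyp1a and 356 reads in 24C and 10 in 10C, a fold of 36.3 (19.5 to 76.3) for cyp1b1.

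Ear and kidney genes had both signs. The otolith matrix gene otomp had 790 reads in 24C and 4 in 10C, a fold of 201 (78.3 to 741), whereas stm (starmaker), also an otolith gene, was lower, with 3638 reads in 24C and 43998 in 10C, a fold of 0.0843 (0.0815 to 0.0872). The ear factor genes hmx2 and hmx3 had 144 reads in 24C and 0 in 10C, at least 48.9-fold higher for hmx2 and 271 reads in 24C and 2 in 10C, a fold of 138 (37.9 to 1146) for hmx3. The early ear and kidney gene pax8 was lower, with 222 reads in 24C and 2249 in 10C, a fold of 0.101 (0.0873 to 0.116), and the salt transporter gene slc12a3 of the kidney tubule higher, with 365 reads in 24C and 10 in 10C, a fold of 37.2 (20.0 to 78.3). In the otic list 15 of the 39 measured members were higher and 11 lower, with a median log2 fold of 0.00, and in the pronephros list 16 of the 39 measured members were higher and 9 lower, with a median log2 fold of 1.00.

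Among cathepsins, proteases of the lysosome and of secretion, 5 were higher and 6 lower of 15 measured. The gene ctsll had 5022 reads in 24C and 74558 in 10C, a fold of 0.0687 (0.0667 to 0.0707), and ctsz had 1533 reads in 24C and 165 in 10C, a fold of 9.47 (8.06 to 11.2). Gap junction genes were mostly higher, where 8 of the 14 measured members were higher and 2 lower, with a median log2 fold of 2.33, with cx39, of muscle, at 456 reads in 24C and 2 in 10C, a fold of 232 (64.0 to 1925). In the cholesterol list 6 of the 20 measured members were higher and 3 lower, with a median log2 fold of 0.20, for example cyp51 with 1014 reads in 24C and 4850 in 10C, a fold of 0.213 (0.199 to 0.228), which was not called in the 24L over 10L pair. Of 855 genes listed as ncRNA, 31 were higher and 67 lower in 24C, against 4712 and 2625 of 19833 listed as mRNA. Among the 587 genes switched on 267 had a provisional LOC name, as had 48 of the 66 switched off. The share of LOC names over all genes was not counted, so these counts are not compared with it.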
